A study of Mus musculus with 2 samples.

Results

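The genes described here are 32 genes of glycolysis and of the transcriptional response to low oxygen, taken by name from the 31053 mouse genes of the gene expression table. They were split into 18 genes of glucose uptake, glycolysis and lactate export (the glycolysis list) and 14 genes of oxygen sensing and hypoxia-induced targets (the hypoxia list). The sum of all 32 is called the module. The cells were sorted as TCR-β positive 9 days after inoculation of mice with B16 melanoma cells or with B16 cells engineered to secrete IL-33 (B16–IL-33). B16 is a mouse melanoma line. The labels name no drug treatment and give no strain, age or number of mice. All cells came from 1 pool, so the data have no replicates, and every interval below is a 95% interval that covers counting error only.

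When a T cell is activated it takes up more glucose and breaks it down to lactate even where oxygen is present. HIF-1α, the product of Hif1a, is a transcription factor that EGLN prolyl hydroxylases mark for degradation while oxygen is available. When oxygen is low, or when antigen receptor signals raise its synthesis, HIF-1α pairs with ARNT and binds a short DNA core near genes for glucose transporters, glycolytic enzymes and mitochondrial turnover. The amount of Hif1a mRNA is therefore not a readout of HIF-1α activity.

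Cells were assigned to classes by their own unique molecular identifiers (UMIs), each of which counts 1 captured mRNA molecule. CD8+ T cells had more Cd8a and Cd8b1 UMIs than Cd4 and Foxp3 UMIs and numbered 1527. They were divided by UMIs of Pdcd1 and Havcr2, the genes of the inhibitory receptors PD-1 and TIM-3, into 838 cells with neither, 330 with Pdcd1 only, 105 with Havcr2 only and 254 with both. Regulatory T (Treg) cells had a Foxp3 UMI and no CD8 UMI. Of 2820 Treg cells, 538 had a UMI of Il1rl1, the IL-33 receptor gene, and 2282 had none. Conventional CD4+ T (Tconv) cells, with Cd4 but neither Foxp3 nor CD8 UMIs, numbered 1809, and 183 cells with Csf1r but no Cd3e were called myeloid. Because a class is set by detected UMIs, classes differed in depth: the median was 3010 UMIs in CD8+ cells with neither receptor, 11636 in those with both, 2972 in Treg cells, 2538 in Tconv cells and 6440 in myeloid cells. Another 3505 of the 9844 kept cells met no rule. Among the marker lists, the T cell list stood at 4019.9 to 4669 UMIs per 1000000 UMIs (CPM) in CD8+, Treg and Tconv cells and at 102 CPM in myeloid cells, whereas the list of 10 myeloid markers stood at 231 to 425 CPM and 12417 CPM, respectively. The lists include genes of the class rules (Cd3e, Cd4, Cd8a, Cd8b1, Foxp3 and Csf1r), so part of this contrast was set by the rules. Outside the rules, Cd3d stood at 1043 CPM in all T cells and 35.3 CPM in myeloid cells, and Lyz2 at 162 and 5963 CPM. Defining markers of melanoma (5 genes) were detected in all 3 T cell lineages, summed to 234 CPM in CD8+, 105 CPM in Treg and 329.5 CPM in Tconv cells, and the part of tumor cell RNA in the results was not tested beyond leaving out the cells that carried it.

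The module differed between CD8+ subsets, between T cell lineages and between T and myeloid cells. It summed to 6775 CPM in CD8+ cells with neither receptor, 8156 CPM in Tconv cells, 9485 CPM in CD8+ cells with Pdcd1 only, 10203 CPM with Havcr2 only, 10760 CPM in Treg cells with Il1rl1, 12055 CPM in Treg cells without it, 12714 CPM in CD8+ cells with both receptors and 15927 CPM in myeloid cells. Within CD8+ cells the difference lay mainly in the glycolysis list, at 5688 CPM with neither receptor and 11342 CPM with both. In Treg cells the hypoxia list stood higher, at 2275 CPM without and 2438 CPM with Il1rl1, against 1087 to 1372 CPM in the 4 CD8+ subsets. It stood at 1492 CPM in Tconv cells and at 2243 CPM in myeloid cells, the latter near Treg cells without Il1rl1. Hif1a alone held 665 of the 2305 CPM of this list in all Treg cells. In UMI terms 5 members, Gapdh, Ldha, Aldoa, Pkm and Pgk1, held 58.6% of the module in all T cells, so the sum mostly follows those enzymes and the members are given on their own below. All 32 members were detected, 31 of them with more than 200 UMIs over the kept cells. Angptl4, which encodes a secreted inhibitor of lipoprotein lipase, had 88.

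**Figure D1:**
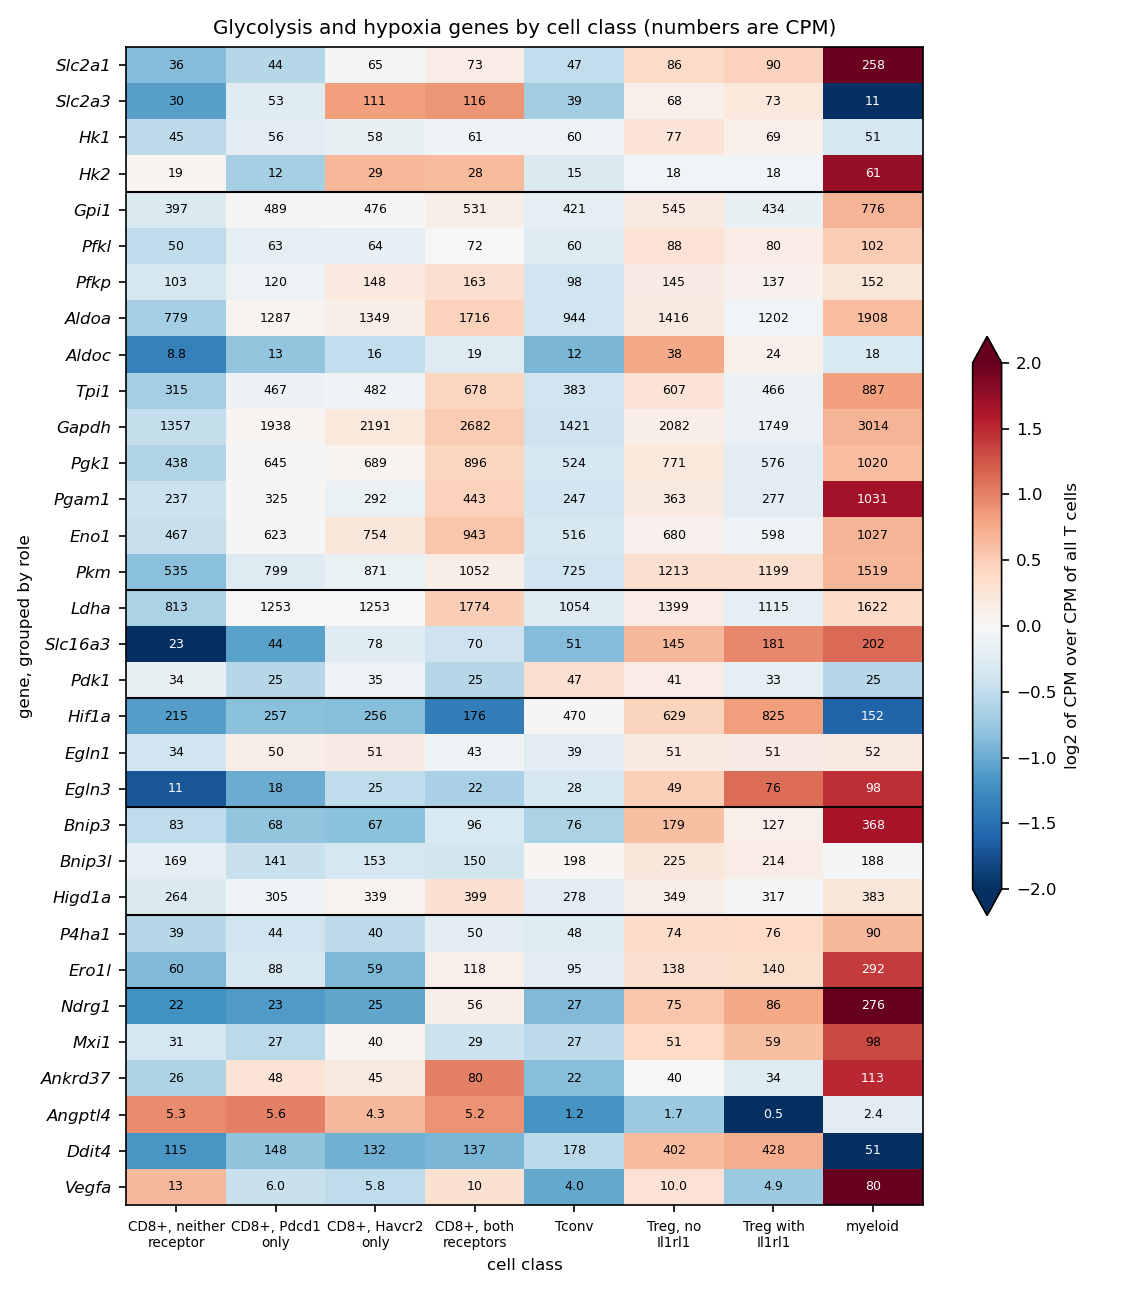
Levels of the 32 members (rows, grouped by role) in 8 cell classes (columns). Numbers are CPM of UMIs summed over the cells of the class, and colour is the log2 of that level over the level in all T cells, capped at 2 in either direction. Hif1a and Ddit4 are highest in both Treg columns, Slc2a3 in CD8+ cells with both receptors, and Slc2a1, Ndrg1 and Vegfa in myeloid cells.

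The DNA core bound by HIF is short, and it was searched in RefSeq promoter windows of 300 bases, 250 before and 50 after the transcription start, on GRCm38.p6. Windows were found for 28 members, 40 windows in all, with Ero1l listed as Ero1a. The motifs were ACGTG and GCGTG on both strands. A window held at least 1 core for 32 of the 40 member windows (80.0%) and for 43.8% of all 32851 windows in the table. The ACGTG form was in 60% of member windows and 19.6% of all, and the GCGTG form in 55.0% and 32.4%. The E-box CACGTG contains ACGTG on both strands, so it counts as 2 overlapping cores. It was in 7.50% of member windows and 7.15% of all. Member windows were richer in G and C, with a median of 65.0% against 52.7%. Among windows with at least 60% G and C, 25 of 27 member windows (92.6%) and 69.2% of all held a core. Cores were in 26 of the 28 member genes (92.9%), the exceptions being Tpi1 and Gpi1, and in 46.7% of all 27025 genes. A match is a string of letters and not a measured binding site.

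The 250 bases before the start are printed for 6 members whose levels the comparisons turn on: Pgk1 and Ldha for the enzymes that were higher in CD8+ cells with both receptors, Ankrd37 for the hypoxia gene with the largest ratio there, Egln3 and Hif1a for Treg cells with Il1rl1, and Ddit4 for Treg cells as a whole. Capitals mark the cores, and adjoining or overlapping cores run together.
Pgk1 (chrX:106186850-106187099, plus strand): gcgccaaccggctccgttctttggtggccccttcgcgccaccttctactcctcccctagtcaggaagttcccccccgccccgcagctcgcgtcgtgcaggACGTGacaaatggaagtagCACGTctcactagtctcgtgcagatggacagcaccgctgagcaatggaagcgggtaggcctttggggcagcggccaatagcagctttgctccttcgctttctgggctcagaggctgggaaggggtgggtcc
Ldha (chr7:46845554-46845803, plus strand): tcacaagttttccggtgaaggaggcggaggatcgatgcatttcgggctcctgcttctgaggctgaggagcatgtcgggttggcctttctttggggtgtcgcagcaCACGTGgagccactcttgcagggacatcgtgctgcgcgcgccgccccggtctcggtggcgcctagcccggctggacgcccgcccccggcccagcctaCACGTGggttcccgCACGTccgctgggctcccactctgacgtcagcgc
Ankrd37 (chr8:45999851-46000100, minus strand): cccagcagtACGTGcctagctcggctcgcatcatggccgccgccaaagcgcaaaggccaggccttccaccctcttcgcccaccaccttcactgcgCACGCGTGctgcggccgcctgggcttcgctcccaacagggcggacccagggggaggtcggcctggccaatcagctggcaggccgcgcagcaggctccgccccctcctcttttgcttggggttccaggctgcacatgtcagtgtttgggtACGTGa
Egln3 (chr12:54203875-54204124, minus strand): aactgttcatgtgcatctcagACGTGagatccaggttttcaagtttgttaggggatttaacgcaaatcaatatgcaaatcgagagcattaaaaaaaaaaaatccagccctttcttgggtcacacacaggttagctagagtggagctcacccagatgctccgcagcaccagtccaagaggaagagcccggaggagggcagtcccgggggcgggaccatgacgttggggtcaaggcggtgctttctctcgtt
Hif1a (chr12:73907617-73907866, plus strand): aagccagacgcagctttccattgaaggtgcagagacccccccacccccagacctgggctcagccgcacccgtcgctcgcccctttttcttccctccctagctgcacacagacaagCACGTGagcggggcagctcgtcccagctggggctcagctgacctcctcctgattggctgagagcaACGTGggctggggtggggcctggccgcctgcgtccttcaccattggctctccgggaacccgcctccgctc
Ddit4 (chr10:59951771-59952020, minus strand): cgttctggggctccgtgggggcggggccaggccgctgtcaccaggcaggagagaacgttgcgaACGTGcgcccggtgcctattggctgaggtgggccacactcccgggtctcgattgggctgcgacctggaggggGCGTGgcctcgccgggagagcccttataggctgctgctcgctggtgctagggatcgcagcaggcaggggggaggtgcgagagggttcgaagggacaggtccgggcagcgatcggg
Pgk1 carries 2 cores, both ACGTG, starting at bases 101 and 120 of the printed sequence and facing in opposite directions. The window shown for Ldha, the first of 2, carries 5 core matches, of which 4 come from 2 E-boxes, and 2 more cores lie after the start. Ankrd37 carries 4, Hif1a 3 (including 1 E-box), Ddit4 2 and Egln3 1.

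CD8+ T cells with both receptors had higher levels of nearly the whole glycolytic chain than cells with neither. Of 29 members with at least 100 UMIs in both groups together, 18 were at least 1.5-fold higher, 0 were lower by that factor, and the median ratio was 1.87. Over all 5649 genes ranked, 12.8% were higher and 14.9% lower by at least 1.5-fold, with a median ratio of 1.02. The 18 genes comprised 13 of 17 ranked members of the glycolysis list and 5 of 12 of the hypoxia list. The 5 include Egln3, for which no order is read below. The summed glycolysis list differed 1.99-fold (1.96 to 2.03) and the hypoxia list 1.26-fold (1.21 to 1.32). Aldoc, Angptl4 and Vegfa had too few UMIs to be ranked.

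Glucose entry showed the largest single ratio. Slc2a3 encodes the high-affinity glucose transporter GLUT3 (chr6:122727809-122801640). It stood at 29.8 CPM in cells with neither receptor, 53.4 CPM with Pdcd1 only, 111 CPM with Havcr2 only and 116 CPM with both, a ratio of 3.89 (3.1 to 4.93) between the last and the first. The cells with Havcr2, with or without Pdcd1, were thus near each other and both above the cells with Pdcd1 only. After every cell was thinned to 1500 UMIs, Slc2a3 was detected in 15.4% (11.2 to 20.4) of cells with both receptors and 4.17% (2.85 to 5.87) of cells with neither. As a gauge of background, Dct, a melanocyte gene, was detected in 0.394% and 1.88% of the same thinned cells, and the macrophage gene C1qb in 4.33% and 2.56%. Slc2a1, the GLUT1 gene, differed 2.03-fold (1.62 to 2.56), and the hexokinases Hk1 and Hk2, which trap glucose as its phosphate, 1.35-fold (1.08 to 1.69) and 1.51-fold (1.08 to 2.13).

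The enzymes of the lower pathway differed by very similar factors. Aldoa, the main aldolase, stood at 779, 1287, 1349 and 1716 CPM in cells with neither receptor, Pdcd1 only, Havcr2 only and both, and its ratio of 2.20 (2.10 to 2.31) was the largest among the member enzymes ranked. Tpi1 (2.15), Pgk1 (2.04), Eno1 (2.02), Gapdh (1.98), Pkm (1.97) and Pgam1 (1.87) covered every later step to pyruvate. The earlier steps differed less. Gpi1, which isomerizes glucose phosphate, had a ratio of 1.34 (1.24 to 1.44), and the phosphofructokinases Pfkl and Pfkp, which commit the sugar to glycolysis, had 1.43 (1.17 to 1.76) and 1.58 (1.38 to 1.82). Some enzyme genes have near-identical copies: Eno1b, a copy of Eno1 with 3001 UMIs over the kept cells, differed 2.27-fold itself, so the split of reads between it and Eno1 is uncertain.

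At the exit of the pathway, the genes of lactate production and export were higher and Pdk1 was not. Ldha, which makes lactate from pyruvate, stood at 813 CPM with neither receptor and 1774 CPM with both, a ratio of 2.18 (2.08 to 2.28). Slc16a3, the lactate exporter MCT4 (chr11:120948480-120960868), stood at 23.2, 43.9, 78.1 and 69.8 CPM along the 4 subsets and differed 3.01-fold (2.30 to 3.96) between the ends. Pdk1, a kinase that shuts off pyruvate dehydrogenase, was at 33.6 and 25.1 CPM with a ratio of 0.748 (0.554 to 1.01), an interval that includes 1. The related kinase Pdk3, which is not a member, was 1.98-fold higher.

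The hypoxia genes split. Ankrd37, an ankyrin repeat gene and HIF target, stood at 26.0, 48.2, 44.9 and 79.9 CPM in cells with neither receptor, Pdcd1 only, Havcr2 only and both, a ratio of 3.07 (2.39 to 3.98). Ndrg1, a stress-response gene on chr15:66929318-66969640, stayed at 22.0 to 24.6 CPM in the first 3 subsets and was at 55.7 CPM in cells with both, 2.54-fold (1.92 to 3.39) above neither. Its share of thinned cells was 6.69% (3.95 to 10.5) with both and 1.88% with neither, where Dct had the same share of 1.88%. Ndrg1 was also in 29.7% of thinned myeloid cells. The myeloid genes Lyz2 and C1qb were in 5.51% (3.05 to 9.08) and 4.33% of the cells with both receptors. Each was in 2.56% of those with neither. The part of myeloid RNA in the Ndrg1 share was not tested. Ero1l, an oxidase of disulfide bond formation in the endoplasmic reticulum, differed 1.98-fold (1.66 to 2.37) and Higd1a, a respiratory chain assembly factor, 1.51-fold (1.38 to 1.65). Egln3 had a ratio of 2.10 (1.38 to 3.25), but its share of thinned cells went the other way, 0.787% with both receptors and 1.62% with neither, so no order is read for it. The mitophagy receptor genes Bnip3 and Bnip3l had ratios of 1.16 (0.979 to 1.37) and 0.887 (0.784 to 1.00), and the prolyl hydroxylase genes Egln1 and P4ha1, the latter acting on collagen, 1.25 (0.969 to 1.63) and 1.28 (1.01 to 1.63). Mxi1, a MYC antagonist, was at 0.946 (0.706 to 1.27), and Ddit4, an inhibitor of mTORC1, at 1.19 (1.04 to 1.37).

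Hif1a itself went against the enzymes in CD8+ cells. It stood at 215 CPM (199 to 232) with neither receptor, 257 CPM with Pdcd1 only, 256 CPM with Havcr2 only and 176 CPM (162 to 191) with both, a ratio of 0.819 (0.732 to 0.917). The order did not hold in cells of like depth: among cells of 4000 to 8000 UMIs the Hif1a ratio was 1.01 (0.777 to 1.31), and among those of 8000 to 16000 UMIs it was 1.19 (0.912 to 1.58). Its share after thinning was 24.0% (18.9 to 29.8) with both receptors and 24.5% (21.4 to 27.8) with neither. The paralog Epas1, which encodes HIF-2α and is not a member, stood at 30.9 against 4.08 CPM, a ratio of 7.58 (4.24 to 14.7).

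**Figure D2:**
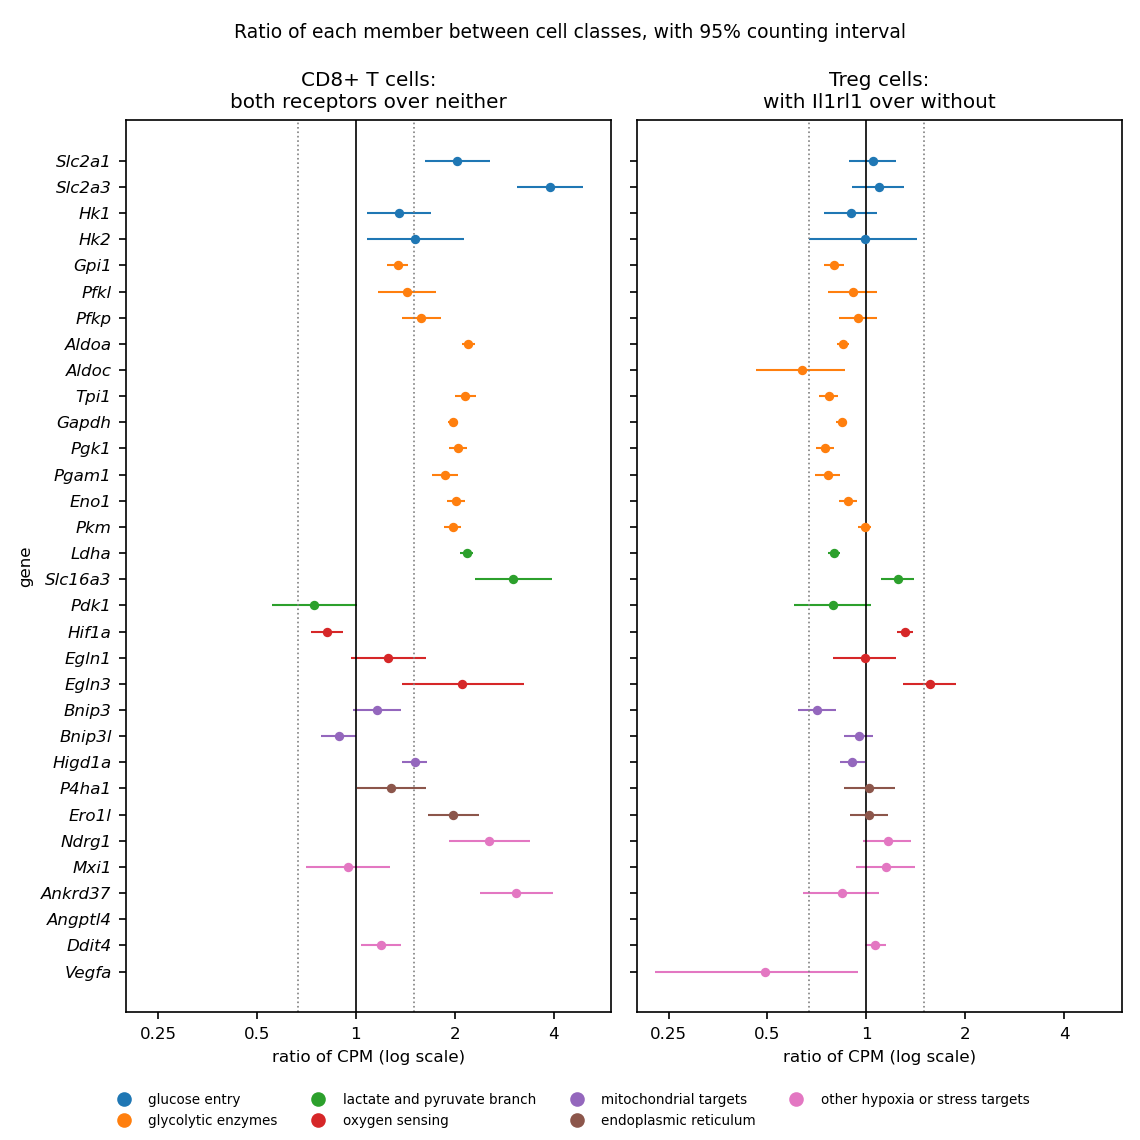
Ratio of CPM for each member (log axis) between CD8+ T cells with both receptors and with neither (left) and between Treg cells with and without Il1rl1 (right). Points are ratios and bars 95% intervals for counting error. Dotted lines stand at 1.5 and at 0.667, colours give the role, and members with under 100 UMIs are not drawn. In CD8+ cells 18 of 29 members lie at or beyond 1.5, and in Treg cells most enzymes lie below 1 while Hif1a, Slc16a3 and Egln3 lie above it.

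By the module sum, cells with 1 receptor lay in between. Not every member followed that order. Hif1a did not, and Bnip3 stood at 68.0 CPM with Pdcd1 only and 66.6 CPM with Havcr2 only, against 82.8 with neither and 95.8 with both. With Pdcd1 only, 5 of 27 ranked members were at least 1.5-fold above cells with neither (Aldoa 1.65, Ldha 1.54, Slc2a3 1.79, Slc16a3 1.89 and Ankrd37 1.85), against 6.16% of all genes, and the module ratio was 1.4 (1.37 to 1.43). With Havcr2 only, 11 of 26 were past that size, against 8.89% of all genes, and the module ratio was 1.51 (1.47 to 1.55). All 3 comparisons share the cells with neither receptor. Of the other pathway genes, Eno1b (1.56), Pdk3 (1.70) and Bhlhe40 (1.55) were past 1.5-fold with Pdcd1 only, of 14 ranked, and Mif (1.54) and Bhlhe40 (1.76) with Havcr2 only, of 9 ranked. Of 42 such genes in all, 17 could be ranked between cells with both receptors and neither. Of these, 6 were at least 1.5-fold higher, namely Epas1 (with the limit given above), the enolases Eno1b and Eno3 (2.97), Pdk3, the cytokine and tautomerase gene Mif (1.93) and the transcription factor gene Bhlhe40 (1.83). A further 2 were lower by that factor: the histone demethylase gene Kdm3a (0.581), itself a HIF target, and Myc (0.596), whose product drives growth and glycolytic genes.

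Depth, cycling and other cell types moved with the receptors. Cells with a UMI of Mki67 or Top2a made up 60.2% of cells with both receptors and 17.2% of cells with neither. Without such cells the module ratio was 2.11 (2.05 to 2.16). Within 4000 to 8000 UMIs (63 cells with both receptors and 230 with neither) the glycolysis ratio was 2.05 (1.97 to 2.14) and the hypoxia ratio 1.36 (1.22 to 1.52), and within 8000 to 16000 UMIs (114 and 36 cells) they were 1.42 (1.37 to 1.48) and 1.17 (1.05 to 1.30). The melanoma list summed to 205 CPM with both receptors and 480.0 CPM with neither. In the cells with neither, 4 cells had 10 or more melanoma UMIs. The myeloid list summed to 541 and 506 CPM. With every cell carrying a melanoma marker UMI left out the module ratio was 2.21, and without cells carrying a myeloid marker UMI 2.26. Without cells with more than 1 beta chain or with a Csf1r UMI, which may be doublets, it was 1.86. The part of depth in the level of cells with both receptors was not tested further.

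Sums per cell gave the same order. Of 1500 UMIs drawn from each cell, the median number from the 32 members was 7 (quartiles 4 and 9) in CD8+ cells with neither receptor, 10 with Pdcd1 only, 12 with Havcr2 only and 17 (13 and 23) with both. It was 8 (5 and 14) in Tconv cells, 15 (10 and 22) in Treg cells and 21 in myeloid cells. Left out for having under 1500 UMIs were 95 cells with neither receptor, 0 with both, 451 Treg cells and 322 Tconv cells. Treg cells with and without Il1rl1 had the same median of 15.

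**Figure D3:**
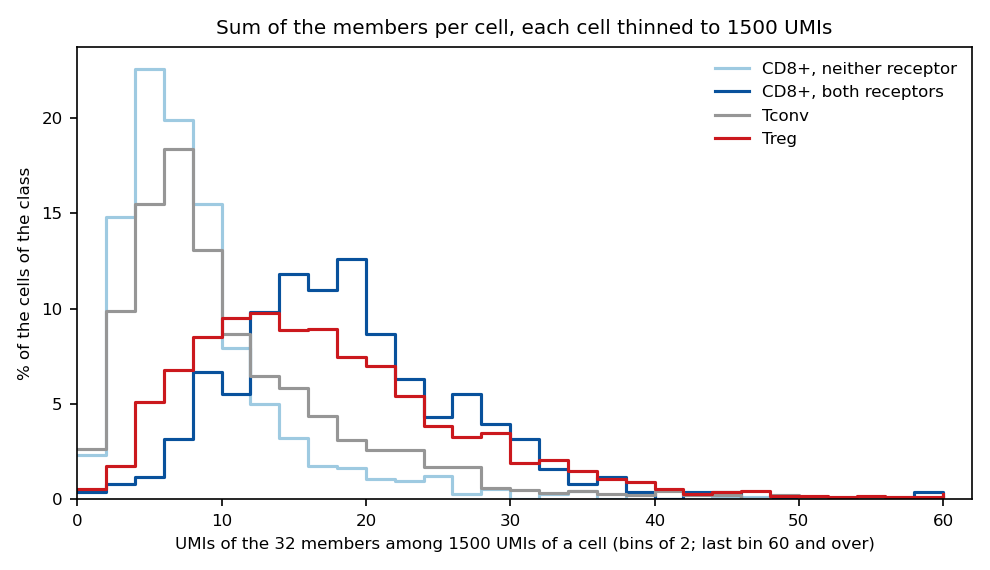
Distribution over cells of the number of UMIs from the 32 members among 1500 UMIs drawn from each cell (x axis, bins of 2) as a percentage of the cells of each class (y axis). The curves for CD8+ cells with both receptors and for Treg cells peak to the right of those for CD8+ cells with neither receptor and Tconv cells, and all 4 overlap.

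Treg cells had higher levels than Tconv cells across nearly every member. Of 31 ranked members 14 were at least 1.5-fold higher and 0 lower, against 10.4% of all genes higher and 5.06% lower, 30 of the 31 ratios were above 1, and the median was 1.46 against 1.05 over all genes. The members past 1.5-fold came more from the hypoxia list (8 of 13) than from the glycolysis list (6 of 18). The 8 include Vegfa, for which no order is read below. The module differed 1.45-fold (1.43 to 1.46), the glycolysis list 1.43-fold and the hypoxia list 1.55-fold. The 4 largest ratios were those of the lactate exporter, an aldolase and a pair of stress genes: Slc16a3 stood at 152 against 50.9 CPM (2.98), Aldoc, a second aldolase, at 35.1 against 11.8 CPM (2.98), Ndrg1 at 76.9 against 27.4 CPM (2.81) and Ddit4 at 407 against 178 CPM (2.29). The glucose transporters Slc2a1 and Slc2a3 differed 1.87-fold and 1.77-fold, Bnip3 2.21-fold, Mxi1 1.94-fold, Egln3 1.93-fold and Ankrd37 1.76-fold. The main enzymes differed less, from Gpi1 at 1.25 to Pkm at 1.67. Pdk1 was the only ranked member below 1, at 0.844 (0.723 to 0.986). Vegfa, the endothelial growth factor gene, had a ratio of 2.24 (1.41 to 3.69) at levels of 9.04 and 4.04 CPM. After thinning it was detected in 0.760% of Treg and 0.403% of Tconv cells. These shares were below the 1.27% and 1.41% for Dct, so no order is read for Vegfa. Aldoc was detected in 5.32% of thinned Treg cells and 1.48% of thinned Tconv cells, the latter near the share of Dct. Of 27 ranked other genes of the pathway, Gys1, a glycogen synthase gene, was 2.02-fold higher, and Epas1 (0.536) and the collagen lysyl hydroxylase gene Plod2 (0.666) were lower.

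Hif1a and Ddit4 were among the 4 members that were about 3.1-fold higher in Treg than in CD8+ cells. Hif1a, on chr12:73901375-73947530, stood at 665 CPM (649.9 to 680.4) in Treg cells, 469.6 CPM (452 to 488) in Tconv cells, 215 CPM (206 to 225) in CD8+ cells and 152 CPM (134 to 172) in myeloid cells, and none of these intervals overlap. It was detected in 61.6% of thinned Treg cells, 44.9% of Tconv, 25.6% (23.3 to 27.9) of CD8+ and 24.4% (18.2 to 31.5) of myeloid cells, so the last pair differed in level while the intervals of their shares overlapped. Ddit4, on chr10:59949669-59951834, stood at 407, 178, 132 and 50.9 CPM in the same order and was detected in 40.0%, 18.4%, 13.8% and 8.14% of thinned cells. Between Treg and CD8+ cells the ratios of Hif1a, Ddit4, Egln3 and Slc16a3 were 3.09, 3.08, 3.08 and 3.14, while the enzymes Gapdh (1.00), Ldha (1.05), Pgam1 (1.04) and Eno1 (0.962) were almost level. The median over all genes was 1.13 in this comparison.

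The Hif1a level was lower in deeper cells of all 3 T cell lineages, so levels were also set side by side within ranges of UMIs. In cells under 2000 UMIs Hif1a stood at 1228 CPM in Treg, 829 CPM in Tconv and 422 CPM in CD8+ cells. In cells of 8000 to 16000 UMIs it stood at 445, 360.0 and 224 CPM. The order of the lineages was the same in both ranges, with Treg over CD8+ ratios of 2.91 (2.42 to 3.53) and 1.98 (1.79 to 2.19). Gapdh went the other way with depth, from 1014 CPM to 2402 CPM in CD8+ cells and from 1554 CPM to 2361 CPM in Treg cells. Treg and CD8+ cells of 8000 to 16000 UMIs therefore differed by only 1.07-fold (1.06 to 1.09) in the glycolysis list and by 1.61-fold (1.54 to 1.68) in the hypoxia list, against 2.01-fold and 2.60-fold in cells of 2000 to 4000 UMIs. Treg over Tconv ratios of the module were 1.39, 1.77, 1.47 and 1.22 from the lowest range to that of 8000 to 16000 UMIs. The Treg over CD8+ ratio of Ddit4 was 4.43 (3.18 to 6.35) under 2000 UMIs and 2.02 (1.78 to 2.29) from 8000 to 16000. In cells of 16000 UMIs and over (41 Treg and 110 CD8+ cells) it was 1.12 (0.923 to 1.36), an interval that includes 1. The Hif1a ratio there was 1.51 (1.25 to 1.80).

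CD8+ cells as a whole, set against Tconv cells, had 3 of 31 ranked members higher by at least 1.5-fold, against 7.46% of all genes, and 3 lower, against 14.7%. Higher were Ankrd37 (2.33), Slc2a3 (1.84) and Vegfa (2.41, at 9.72 and 4.04 CPM). Lower were Hif1a (0.458, 0.432 to 0.486), Egln3 (0.629) and Pdk1 (0.609). The glycolysis list differed 1.28-fold (1.26 to 1.29) and the hypoxia list 0.825-fold (0.803 to 0.849). Hif1a alone held 215 of the 1231 CPM of the hypoxia list in CD8+ cells and 469.6 of the 1492 CPM in Tconv cells. Of the 13 ranked hypoxia members 7 had ratios above 1, and the median over the 13 was 1.08. The hypoxia list was not summed without Hif1a. Vegfa was again detected in few thinned cells, 1.34% and 0.403% against 1.20% and 1.41% for Dct, so no order is read for it. Among 26 ranked other pathway genes Eno3 (1.90), Slc16a1 (1.88) and Epas1 (1.87) were higher, and Ldhb (0.391), Arnt (0.520), the gene of the partner of HIF-1α, Bpgm (0.608) and Kdm3a (0.665) were lower. The Tconv cells also serve in the Treg comparison above.

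Treg cells with Il1rl1 had a lower summed level of the glycolysis list and more Hif1a than the other Treg cells. The differences were small, and the counts of members past 1.5-fold were near the share of all genes. Of 31 ranked members 1 was at least 1.5-fold higher, against 3.18% of all genes, and 2 were lower by that factor, against 4.94%. The median ratio was 0.908 over the ranked members and 1.00 over all genes.

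From Gpi1 to Ldha, the enzymes other than the phosphofructokinases and Pkm had intervals below 1. Pgk1 stood at 576 CPM with and 771 CPM without Il1rl1, a ratio of 0.748 (0.702 to 0.795). Pgam1 (0.762), Tpi1 (0.767), Ldha (0.797), Gpi1 (0.798), Gapdh (0.840), Aldoa (0.849) and Eno1 (0.880) followed, and Aldoc, at 23.9 and 37.6 CPM, had 0.637 (0.462 to 0.862). Pkm, the pyruvate kinase, was at 0.989 (0.946 to 1.03), Pfkl at 0.908 (0.763 to 1.08) and Pfkp at 0.946 (0.828 to 1.08). The summed glycolysis list differed 0.851-fold (0.837 to 0.865). Bnip3 was lower as well, at 127 against 179 CPM (0.708, 0.618 to 0.808), and Vegfa at 4.89 and 9.98 CPM (0.490, 0.227 to 0.943), although its thinned shares of 0.862% and 0.735% went the other way and no order is read for it.

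The 3 members with intervals above 1 were in oxygen sensing and lactate export. Egln3, a hydroxylase that is itself induced by HIF and acts in feedback (chr12:54178981-54203860), stood at 75.8 CPM (64.3 to 88.7) with and 48.6 CPM (44.1 to 53.3) without Il1rl1, a ratio of 1.56 (1.29 to 1.88), and was detected in 10.8% (8.10 to 14.0) and 6.61% (5.54 to 7.82) of thinned cells. Hif1a differed 1.31-fold (1.24 to 1.39), standing at 825 CPM (786 to 865) in the cells with Il1rl1 against 629 CPM (612 to 645), with thinned shares of 67.7% and 60.2%. Slc16a3 stood at 181 and 145 CPM (1.25, 1.11 to 1.4). Other hypoxia targets were close to level, among them Ndrg1 (1.16, 0.975 to 1.37), Ddit4 (1.06, 0.987 to 1.15), Ero1l (1.02) and P4ha1 (1.02). Among 23 ranked other genes of the pathway 4 were at least 1.5-fold higher: Bpgm (1.80), which makes bisphosphoglycerate, the third prolyl hydroxylase gene Egln2 (1.5), Pgm1 (1.53) of glycogen metabolism and Myc (1.54). Pfkfb3 (0.603), which makes the activator of phosphofructokinase, was lower.

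Myeloid RNA moved with this comparison. The 10 myeloid markers summed to 93.8 CPM with and 442 CPM without Il1rl1, none of them at 0 in either group, and the 5 melanoma markers to 54.2 and 116 CPM. Without cells carrying a myeloid marker UMI the Hif1a ratio was 1.23. The glycolysis ratios by depth range, from under 2000 UMIs up to 16000, were 0.993, 0.879, 0.913 and 0.828, and the Hif1a ratios 1.18, 1.23, 1.29 and 1.39. The module ratio was above 1 in the lowest range, at 1.06 (1.01 to 1.11), and below 1 in the others. In cells under 2000 UMIs the module thus had the opposite direction, and the hypoxia list a ratio of 1.24 (1.14 to 1.35). Tumor of origin moved with Il1rl1 too. By hashtag, 14 Treg cells with Il1rl1 came from each tumor, and those without were 43 from B16–IL-33 and 265 from B16. Within B16, Hif1a stood at 607 CPM (439 to 818) with and 539 CPM (501 to 579) without Il1rl1. The glycolysis list stood at 6566 and 10698 CPM. Within B16–IL-33 the values were 1112 and 767 CPM, and 7394 and 8516 CPM. The part of the tumor was not tested.

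**Figure D4:**
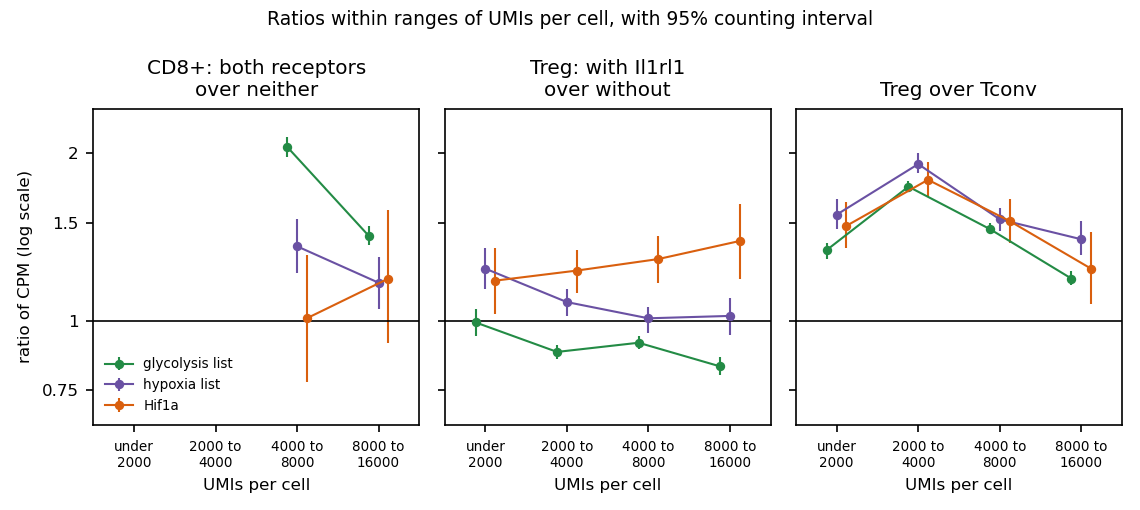
Ratios of CPM (log axis) for the glycolysis list, the hypoxia list and Hif1a within ranges of UMIs per cell, for CD8+ cells with both receptors over neither, Treg cells with over without Il1rl1, and Treg over Tconv cells. Bars are 95% intervals for counting error, and ranges with under 20 cells in a group are not drawn. In Treg cells with Il1rl1, Hif1a stays above 1 in all 4 ranges, while the glycolysis list is at 0.993 in the lowest range and below that in the others.

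Cycling cells were compared with the other cells of their class. In CD8+ cells with a Mki67 or Top2a UMI, 6 of 30 ranked members were at least 1.5-fold above the other CD8+ cells, against 12.2% of all genes, and all 6 were enzymes: Ldha (1.64), Pgam1 (1.59), Tpi1 (1.54), Eno1 (1.52), Pgk1 (1.52) and Pkm (1.51). The hypoxia list was level there, at 1234 and 1229 CPM. In cycling Treg cells 0 of 31 were past 1.5-fold higher and 3 were lower, against 9.10% of all genes higher and 7.59% lower, namely Aldoc (0.536), P4ha1 (0.603) and Ndrg1 (0.625). The glycolysis list stood at 10119 against 9148 CPM (1.11) and the hypoxia list at 2021 against 2474 CPM (0.817, 0.796 to 0.839), with Hif1a at 0.765 (0.728 to 0.804) and Ddit4 at 0.768 (0.721 to 0.818). Hif1a was lower in cycling CD8+ cells as well, at 0.768 (0.702 to 0.838). In Tconv cells the module differed 1.34-fold (1.31 to 1.36). Of the other pathway genes ranked, 5 of 24 were at least 1.5-fold higher in cycling CD8+ cells: Plod2 (2.73), Eno3 (2.48), Pdk3 (1.75), the mitochondrial gene Fam162a (1.58) and Mif (1.53). In cycling Treg cells the lactate transporter gene Slc16a1 (1.91), Pdk3 (1.73) and Mif (1.57) were higher and Pfkfb3 (0.532) lower, of 23 ranked. No adjustment for depth was made in these comparisons.

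Ndrg1 marked T cells in which other hypoxia genes were higher. After thinning, an Ndrg1 UMI was found in 224 of 2369 Treg cells (9.46%, 8.31 to 10.7), 47 of 1487 Tconv cells (3.16%), 39 of 1419 CD8+ cells (2.75%, 1.96 to 3.74) and 51 of 172 myeloid cells (29.7%). Among CD8+ cells the share was 6.69% (3.95 to 10.5) with both receptors and 1.88% (1.03 to 3.14) with neither. In Treg cells with an Ndrg1 UMI, 9 of 28 ranked members were at least 1.5-fold above the Treg cells without one, against 5.67% of all genes. They were Egln3 at 146 against 49.7 CPM (2.93, 2.08 to 4.06), Slc2a1 (2.32), Ero1l (2.29), Bnip3 (2.25), Mxi1 (1.82), Ankrd37 (1.60, 0.941 to 2.58), P4ha1 (1.59), Pgam1 (1.56) and Pfkp (1.52). Of the other pathway genes 0 of 10 ranked were past 1.5-fold in either direction. Most enzymes were within 1.5-fold but above 1, as Gapdh (1.39) and Ldha (1.24) show.

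Part of these cells carried myeloid RNA. The myeloid list stood at 414 CPM in Treg cells with Ndrg1 and 199 CPM in those without, and the gene with the highest ratio over the whole table was Spp1, a macrophage gene, whose 164 UMIs came from 12 of the 224 cells. With every cell that had a myeloid or melanoma marker UMI left out, 197 and 1961 cells remained and 9 of 28 members were past 1.5-fold, against 5.91% of all genes, with Slc16a3 (1.51) in place of Ankrd37 (1.29). Egln3 then had the highest ratio of all genes ranked, 2.92 (2.02 to 4.15), with a UMI in 15.7% of cells with Ndrg1 and 6.43% of cells without, and no cell holding more than 3 of its 42 UMIs. Bnip3 (2.16), Ero1l (1.98), Slc2a1 (1.95) and Mxi1 (1.87) stayed near their former values. Among genes outside the pathway, picked after their values were seen, the cell cycle inhibitor gene Cdkn1a had 2.55 (1.88 to 3.41), and the perforin gene Prf1 had 2.74, with 11 of its 22 UMIs in the Ndrg1 cells from 1 cell.

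**Figure D5:**
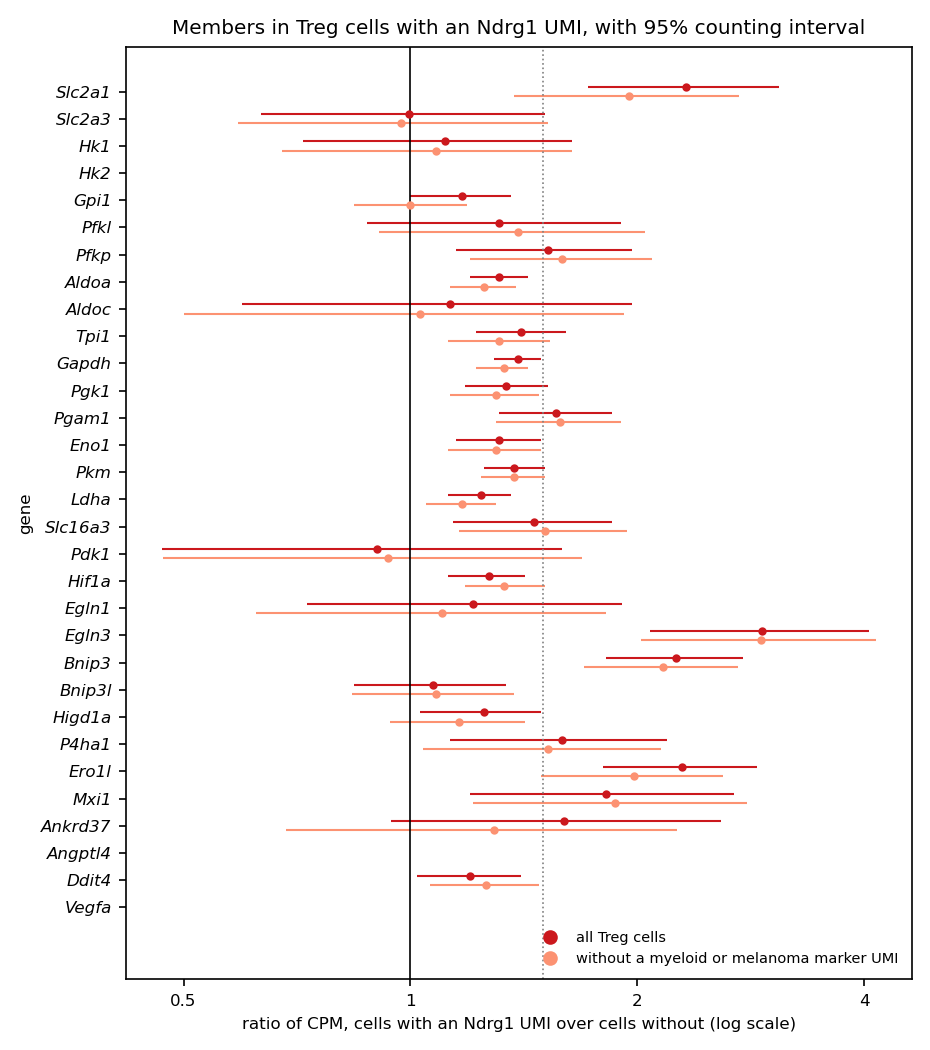
Ratio of CPM (log axis) for each member in thinned Treg cells with an Ndrg1 UMI over those without, for all Treg cells (dark) and after leaving out cells with a myeloid or melanoma marker UMI among the drawn UMIs (light). Bars are 95% intervals for counting error and the dotted line stands at 1.5. Members with under 100 UMIs are blank. Egln3, Bnip3, Slc2a1, Ero1l and Mxi1 lie beyond the line in both sets.

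In CD8+ cells, 39 cells with an Ndrg1 UMI were set against 1380 without. Of 19 ranked members 16 were at least 1.5-fold higher, against 15.0% of all genes, and the module without Ndrg1 differed 2.10-fold (1.96 to 2.24). Ero1l had 4.34 (2.24 to 7.74), Bnip3 2.89 (1.21 to 5.92), Pgk1 2.63 (2.02 to 3.37) and Aldoa 2.35 (1.95 to 2.80), whereas Hif1a had 1.03 (0.558 to 1.74). Pfkl was the 1 member past that size in the other direction, against 25.6% of all genes, at 0.655 (0.0784 to 2.43), an interval that includes 1. Of 8 ranked other pathway genes Cited2 (2.38), Mif (2.20), Eno1b (2.12), Fam162a (1.77) and Bhlhe40 (1.61) were past 1.5-fold. The myeloid list stood at 957 against 227 CPM, and no melanoma marker was detected among the drawn UMIs of the 39 cells. Without cells carrying a marker UMI among the drawn UMIs (28 and 1233 cells), 12 of 15 members were past that size, against 15.0% of all genes. The module differed 2.07-fold (1.91 to 2.25). From the hypoxia list 3 of 4 ranked members were past it, against 5 of 6 before. Ero1l then rested on 7 UMIs in 7 of the 28 cells, and Bnip3 on 4 UMIs in 3 cells. They were found in 75 and 60 of the 1233 cells without Ndrg1. Pgk1 was in 17 and Aldoa in 24 of the 28 cells, against 520 and 759 of the 1233. Over all genes the 10 highest ratios, before cells were left out, were those of Gzmf, Ccl7, Spp1, Mt1, Gzmc, Ifitm3, Hilpda, Nfil3, AA467197 and Ier3. Of these, 4 were again among the 10 highest without the marker-bearing cells, namely Gzmf, Mt1, Gzmc and Hilpda. The granzyme gene Gzmf, first at 25.3, rested on 60 UMIs of which 59 came from 1 cell. The metallothionein gene Mt1 was in 20 of the 39 cells (51.3%) and 15.9% of the others (7.22, 5.78 to 8.95). The granzyme gene Gzmc was in 30.8% and 8.41% (6.40, 5.09 to 7.98). Hilpda, a lipid droplet gene induced by HIF, was in 35.9% and 11.2% of the same groups (5.90, 4.0 to 8.46). In the cells with Ndrg1, 35 of the 95 Gzmc UMIs came from 1 cell, as did 22 of the 102 Mt1 UMIs from 1 cell.

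The myeloid cells of the sort gave a reference outside the T lineages. Of 31 ranked members 19 were at least 1.5-fold above all T cells together, against 16.2% of all genes, and 3 were lower, against 39.9%. The median over all genes was 0.777 here. Vegfa stood at 80.3 against 8.20 CPM (9.79, 7.83 to 12.2), Ndrg1 at 276 against 50.7 CPM (5.45), Slc2a1 at 258 against 66.0 CPM (3.90), Hk2 at 61.1 against 18.3 CPM (3.33) and Pgam1 at 1031 against 320.4 CPM (3.22). The 3 lower members were Slc2a3 at 10.8 against 63.1 CPM (0.171, 0.101 to 0.271), Ddit4 (0.197, 0.157 to 0.244) and Hif1a (0.331, 0.291 to 0.374). The 2 glucose transporter genes thus lay on opposite sides, Slc2a1 higher in myeloid cells and Slc2a3 in T cells, and Slc2a3 was detected in 1.16% of thinned myeloid cells, the same share as Dct. Of 30 ranked other pathway genes 8 were at least 1.5-fold higher in myeloid cells, led by the hexokinase gene Hk3 (23.5) and the lysyl hydroxylase gene Plod1 (6.97) and followed by Ak4 (3.90), Gys1 (3.84), Pfkfb3 (3.75), Vhl (2.58), Mif (1.63) and Mpc1 (1.56). A further 8 were lower: Plod2 (0.275), Ldhb (0.337), Slc16a1 (0.378), Epas1 (0.428), Myc (0.513), Hif1an (0.603), Pfkm (0.629) and Bpgm (0.647).

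The tumor of origin could be read for few cells, because the hashtag counts were sparse. Of the kept cells 9627 were also in the hashtag library, and 898 cells had tag UMIs from B16 only, 149 from B16–IL-33 only and 8 from both. In Treg cells (57 from B16–IL-33 and 279 from B16) the module stood at 10581 against 12678 CPM (0.835, 0.798 to 0.873), with the glycolysis list at 0.787 (0.748 to 0.828) and the hypoxia list at 1.06 (0.962 to 1.17). The direction was the opposite in the 14 cells of each tumor with Il1rl1, with a module ratio of 1.25 (1.11 to 1.42) and a hypoxia ratio of 1.76 (1.36 to 2.27), and among the cells without Il1rl1 the module ratio was 0.826 (0.785 to 0.869). Within ranges of UMIs the module ratio was 0.971 (0.840 to 1.12) under 2000 UMIs, 0.914 (0.841 to 0.992) from 2000 to 4000 and 0.815 (0.755 to 0.880) from 4000 to 8000. The 2 pairs of tags disagreed: the module ratio was 0.998 (0.925 to 1.07) with the tags numbered 1 and 0.777 (0.734 to 0.823) with those numbered 2. Pgk1 stood at 540.1 against 840.3 CPM. By tag it was 577 CPM (20 cells) and 519.5 CPM (37 cells) in B16–IL-33, and 649 CPM (88 cells) and 898 CPM (186 cells) in B16. The tag values did not overlap between tumors, but they are point values without intervals. Pgk1 was not set out by range of UMIs.

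Hif1a differed in the opposite direction, at 844 CPM (723 to 981) in Treg cells of B16–IL-33 and 542 CPM (505 to 581) in those of B16, a ratio of 1.56 (1.31 to 1.84). The B16 tags gave 539.8 and 537 CPM, and the B16–IL-33 tags 1113 CPM over 20 cells and 695 CPM over 37 cells. Depth moved with the tumor, with medians of 2643 and 3745 UMIs, and within ranges of UMIs the Hif1a ratio was 1.64 (1.13 to 2.37) under 2000 UMIs, 1.08 (0.797 to 1.45) from 2000 to 4000 and 1.29 (0.933 to 1.76) from 4000 to 8000. So did Il1rl1, found in 24.6% of the Treg cells of B16–IL-33 and 5.02% of those of B16, 14 cells each. Among Treg cells without Il1rl1 the Hif1a ratio was 1.42 (1.16 to 1.73), with tag values of 1191 and 520.5 CPM in B16–IL-33 against 538 and 533 CPM in B16, which do overlap. In CD8+ cells (21 and 141) the module stood at 7548 against 9467 CPM (0.797, 0.743 to 0.855) and Hif1a at 149.9 against 177 CPM (0.849, 0.484 to 1.4). In Tconv cells (17 and 170) the module ratio was 1.00 (0.894 to 1.12). Each tumor is 1 sample, and whether the tags of a tumor mark separate mice is not given in the sources used here.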

How the data were processed

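T cells of 1 pool were sequenced as a 10x 5′ gene expression library with hashtag and TCR libraries. The authors deposited UMI counts per gene and barcode, without normalization, counted against a joint reference of the human and mouse (mm10) genomes. The submitters' notes name Cell Ranger 6.1.1, and the matrix header names version 3.1.0. Hashtag and TCR contig values were deposited as UMI counts as well.

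From 14035 barcodes, 9844 with at least 200 genes and under 5% mitochondrial UMIs were kept (40091218 mouse UMIs, median 2639 per cell; human UMIs were 0.0197%). Counts were summed per class and scaled to CPM. A cell meeting a T cell and the myeloid rule (28 cells) counted as myeloid only. No doublet caller was run; an alternative left out cells with 2 beta chains or a Csf1r UMI. Intervals were exact (Poisson for levels, conditional binomial for ratios, Clopper-Pearson for shares; SciPy 1.17.1, NumPy 2.4.6, pandas 2.3.3) and cover counting error only. Genes were ranked with at least 100 UMIs in both groups together, leaving out the gating genes, and a gene counted as higher or lower at 1.5-fold. Cells of 1 pool are not replicates, so no p-value was computed. For shares, each cell was thinned once to 1500 UMIs with a fixed seed. The scripts were tested on simulated data.

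A cell was given a tumor if all its tag UMIs, at least 1, came from tags of that tumor. Gene identifiers gave coordinates in GENCODE vM21 (GRCm38). Ndrg1, Slc2a3, Bnip3l and Angptl4 were not matched to a promoter window. The members and gene lists were chosen with earlier results of these data known. All 32 members are accounted for, with values for those with at least 200 UMIs; other pathway genes are named at 1.5-fold in either direction, and the 10 highest ratios are named for CD8+ cells with Ndrg1.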

Additional observations from a re-analysis of the deposited data

How the results depend on the processing

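The 3 module ratios kept their direction under the alternatives given here, although within Treg cells under 2000 UMIs the Il1rl1 ratio was 1.06. The alternatives that left out marker-bearing cells or kept 1 range of UMIs were chosen after seeing the data. For CD8+ cells with both receptors against neither (1.88) the module ratio was 2.04 with at most 2500 detected genes, 2.19 as a mean of the CPM of each cell, 1.72 with cells thinned before gating (24 cells with both receptors), 1.83 divided by the median ratio of all genes, 2.11 without cycling cells, 1.96 with at least 2 UMIs of each receptor, 1.79 with overlapping cells in both classes, 2.21 without cells with a melanoma marker UMI, 2.26 without cells with a myeloid marker UMI and 1.94 in cells of 4000 to 8000 UMIs. The count of 18 members past 1.5-fold was 10 after thinning and 10 in cells of 4000 to 8000 UMIs, where fewer members reach the floor, and 15 to 21 otherwise. For Treg cells with Il1rl1 against without (0.893) the ratio was 0.924 with at most 2500 genes, 0.943 as a mean over cells, 0.970 (0.937 to 1.00) with thinning and 0.923 in cells of 2000 to 4000 UMIs, and without cycling cells 0 members, in place of Egln3 alone, were past 1.5-fold. For Treg against Tconv (1.45) it was 1.59 with at most 2500 genes, 1.54 as a mean over cells, 1.49 with thinning, 1.38 divided by the median, 1.54 without cycling cells, 1.48 with at least 2 Foxp3 UMIs, 1.58 without cells with a melanoma marker UMI, 1.58 without those with a myeloid marker UMI and 1.77 in cells of 2000 to 4000 UMIs.

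Of 306 member values under the alternatives for CD8+ cells 213 lay within the counting interval of the reported ratio. Among the members past 1.5-fold, 1 turned direction, Pfkp at 0.470 (0.0564 to 1.73) with thinning. Counting every member, whatever its size, 5 of 29 lay on both sides of 1: Bnip3l, Ddit4, Hif1a, Mxi1 and Pfkp. For Treg cells by Il1rl1 45 of 362 and for Treg against Tconv 99 of 362 lay outside that interval, and 0 members past 1.5-fold turned direction. Of all 31 ranked members 15 lay on both sides of 1 by Il1rl1, Aldoa, Pgam1 and Ndrg1 among them, and 0 for Treg against Tconv. Hif1a in CD8+ cells ranged from 0.680 to 1.83. The causes were not tested. Without replicates no difference can be set against the variation between mice, and the 39 CD8+ cells with Ndrg1 and the 57 tagged Treg cells of B16–IL-33 limit what those values can show. No paired analysis was possible because the labels give 1 pool and the results come from no test.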

Other observations

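The module was also summed in cells outside the comparisons above. The 3505 kept cells that met no class rule, with a median of 2065 UMIs, had a module level of 13840.0 CPM, above the 10271 CPM of all classed T cells together. They are not a cell type, and no marker was used to name them.

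Clones were taken from the TCR library as the table gives them. In CD8+ cells, 302 cells of clones with at least 2 cells had a module level of 11023 CPM and 869 cells of clones of 1 cell 9357 CPM, a ratio of 1.18 (1.16 to 1.20). The share of cycling cells was 41.7% and 30.5% and the median depth 5758 and 4707 UMIs, and their part in the ratio was not tested. In Treg cells (127 and 1770 cells) the levels were 13941 and 11646 CPM (1.20, 1.17 to 1.22), with 29.9% and 26.0% cycling. In Tconv cells (63 and 1154 cells) they were 6888 and 7538 CPM (0.914, 0.867 to 0.962). The difference in direction between the classes was not tested.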
